A study of Mus musculus with 12 samples.

Results

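A set of 202 genes differed at least 8-fold between mouse hippocampi of the strains C57BL/6J, here B6, and DBA/2J, here D2, out of 22234 genes measured (0.909%). They were chosen from the normalized counts, which are read counts divided by 1 scaling factor per library. For each gene, 1 was added to the mean of the 6 B6 libraries and to the mean of the 6 D2 libraries, and the gene was kept when one was at least 8 times the other and the higher mean was at least 50. Symbols beginning with Zfp, Pcdh, Hist, H2-, Oas, Rpl or Rps were left out, which removed 21 further genes. Of the 202 genes, 104 were higher in B6 and 98 were higher in D2. Because the strain difference chose these genes, their strain values are given below as a description, with no test.

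The 12 libraries came from adult male mice injected at 3 to 5 months of age into the hippocampus with an adeno-associated virus (AAV9), with tissue taken at least 6 weeks later. There were 3 mice in each of 4 groups: B6 and D2 mice given a scrambled hairpin RNA (Ctrl), and B6 and D2 mice given a hairpin against Hp1bp3 (KD), a chromatin protein. Every mouse therefore carried virus, no engineered allele is named for either inbred strain, and the tissue was whole hippocampus, in which fewer cells of a type and less RNA per cell cannot be told apart. The authors aligned B6 reads to a B6 genome and D2 reads to a D2 genome, so for any gene a difference in RNA and a difference between the reference genomes cannot be told apart.

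Library totals ran from 18.2 to 39.4 M expected counts. The targeted gene, Hp1bp3, averaged 9182 ± 308 (SD, n = 3) in the B6 Ctrl group against 6200 ± 1242 in the B6 KD group. In D2 the Ctrl and KD groups averaged 6792 ± 258 and 5719 ± 1083. With 6941, the library labelled D2 KD 3 fell among the D2 Ctrl libraries (6504 to 7002), so the D2 comparisons are given with and without it. The 8 markers of hippocampal neurons were all measured and summed to between 143777 and 186411 per library, while the 8 markers of choroid plexus, a tissue that lies against the hippocampus, ran from 1887 to 156274 and varied widely within every group.

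B6 and D2 are old inbred strains whose genomes differ in sequence and in the copies of genes they carry. A processed pseudogene is a copy of a spliced messenger RNA that was inserted elsewhere in the genome, and it often keeps nearly the same sequence as its parent gene. A short sequencing read from such a sequence can match both places, and the RSEM program divides such reads among all the genes that could have produced them. A gene's count therefore reflects its RNA together with how the sequence is laid out in the reference to which the reads were aligned.

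Many of the differences were close to all or none. In B6, 13 of the higher genes had a ratio of at least 64, and in D2 33 did. For 5 of the genes higher in B6, all 6 D2 libraries held 0, and for 13 of those higher in D2, all 6 B6 libraries did. The median ratio was 16.2 for the genes higher in B6 and 26.1 for those higher in D2, or 16.2 and 24.7 when genes at 0 in the lower strain were set to the bound given by 3 counts per library. The 6 libraries of one strain all lay above the 6 of the other for 194 of the 202 genes, against 14.4% of 15849 tested genes, a count the choice of genes itself fixes. Within the higher strain the spread was small, with a median coefficient of variation of 20.5% for genes higher in B6 and 15.4% for those higher in D2.

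**Figure D1:**
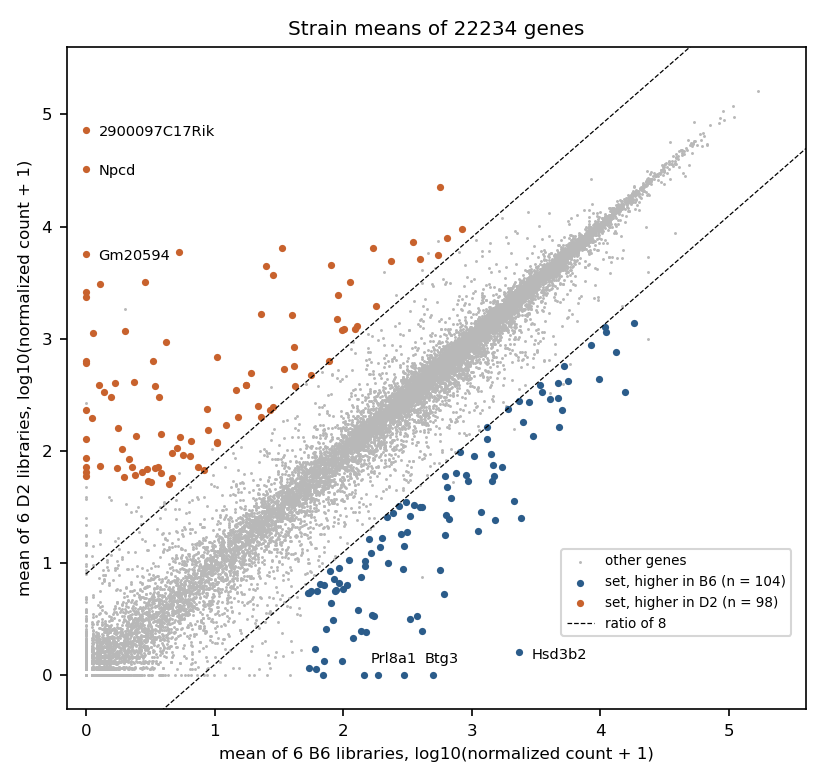
Mean normalized count of each of 22234 genes over the 6 B6 libraries (x axis) and the 6 D2 libraries (y axis), both as log10 of the mean plus 1; blue and orange points are the 104 and 98 genes of the set, and dashed lines mark a ratio of 8. Gray points past the lines have means under 50 or a symbol that was left out, and 2900097C17Rik, Npcd and Gm20594 stand at 0 on the B6 axis.

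At the edge of the set, Fgf11, Klf7 and Deptor had the smallest ratios kept among genes higher in B6 (8.07, 8.08 and 8.30), and Lif, Nlrc3 and 1700034P13Rik fell just short (7.99, 7.92 and 7.89). Among genes higher in D2, Bambi-ps1, 0610012G03Rik and Tmem185b were just inside (8.14, 8.22 and 8.50), and Dcc, Gm10778 and Pm20d2 just outside (7.88, 7.75 and 7.50). By level, Ly6c2 (mean 52.0 in B6) and Pram1 (50.1 in D2) were kept, while Tnfrsf8 (46.1) and Rdh18-ps (46.6) were not.

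Hsd3b2, a member of the enzyme family that converts hydroxysteroids in steroid hormone synthesis, had the largest ratio among genes higher in B6. Its normalized count was 2904, 2420 and 2435 in B6 Ctrl and 2199, 2016 and 2080 in B6 KD, against 0, 1.71 and 1.11 in the Ctrl and 0, 0.789 and 0 in the KD libraries of D2. The strains were far apart and no D2 library reached 3 counts. Of the 7 genes of the Hsd3b family measured, 4 stayed at or under 10 in every library. Hsd3b7, which acts in bile acid synthesis, averaged 402 in B6 and 336 in D2 (edgeR adjusted p = 0.255). Hsd3b3 averaged 9.24 in B6 and 16.6 in D2 and was higher in D2 (log2 fold change 0.91 ± 0.21 (SE), edgeR adjusted p = 0.00827).

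Btg3, an antiproliferative gene of the BTG and TOB family, held 613, 448 and 364 in B6 Ctrl and 534, 524 and 495 in B6 KD, and 0 in all 6 D2 libraries, so it was at least 151-fold higher in B6. Prl8a1, a prolactin-like hormone gene known from the placenta, held 254 to 379 in B6 (median 284) and 0 in D2, at least 90.01-fold higher in B6. Both were all or none between strains, and neither was near 0 in any B6 library. Of the 27 genes of the prolactin family measured, 24 stayed at or under 10 in every library, and the receptor gene Prlr averaged 1108 in B6 and 1877 in D2 (edgeR adjusted p = 0.493). The 3 genes next in ratio were Gm5148 (116 to 238 in B6 and 0 in D2), the carboxylesterase Ces2b (326 to 455 against 0 to 3.83) and Gm13304 (75.9 to 202 against 0).

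Among genes higher in D2, 2900097C17Rik stood first. It held 71828, 83089 and 65107 in Ctrl and 66588, 76055 and 70133 in KD mice of D2, and 0 in all 6 B6 libraries, a difference of at least 25129-fold. Its identifier, ENSMUSG00000067833, is not in the annotation used here (GENCODE M21, build GRCm38), and its symbol is an older name of both Norad and Bscl2 in the RefSeq gene table, so no position is given. Gm20594, a protein-coding gene of 449 bases on chromosome 6 (chr6:79817916-79818364), held 5123 to 6185 in D2 (median 5697) and 0 in B6, at least 1975-fold higher in D2. None of its sequence windows was found in another gene of the table. Gm10845, a long non-coding RNA on chromosome 14, held 2093 to 3108 in D2, and Atp5g2, a subunit of the mitochondrial ATP synthase, held 2183 to 2527, with all B6 libraries at 0 for both. Ppia, which encodes cyclophilin A, a folding enzyme found in nearly all cells, held 457 to 624 in B6 and 21529 to 23909 in D2.

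**Figure D2:**
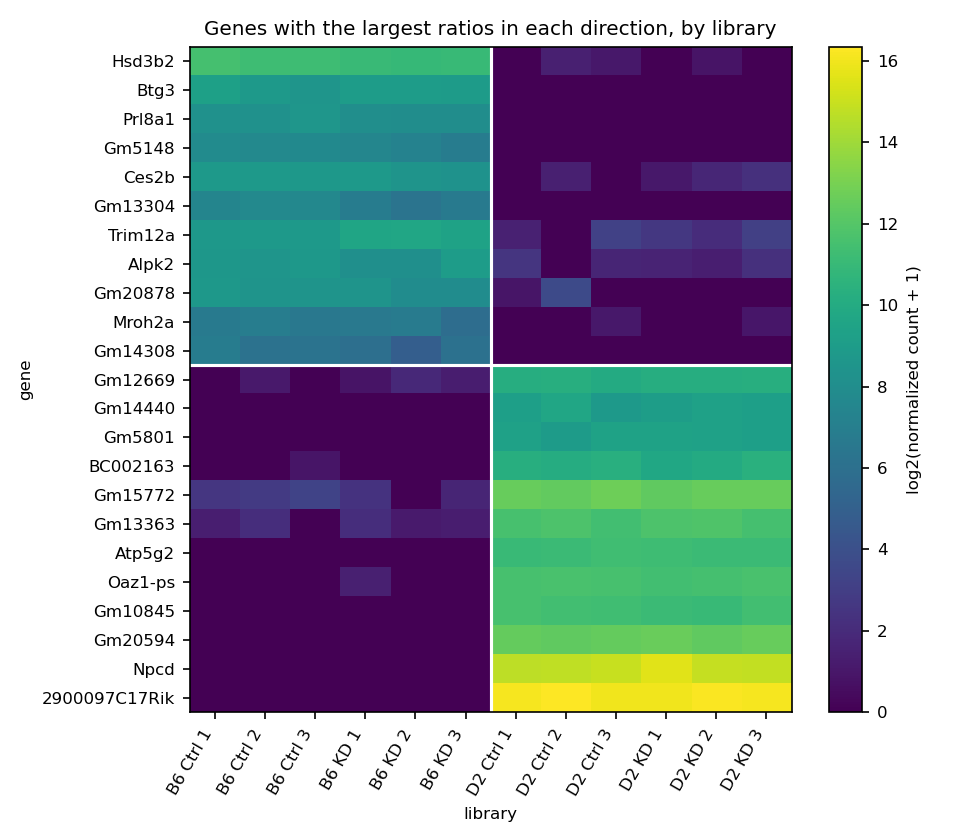
Normalized counts of genes with the largest ratios, 11 higher in B6 and 12 higher in D2 (rows), in the 12 libraries (columns), colored by log2 of the normalized count plus 1. The upper 11 genes are bright in the 6 B6 libraries and dark in the 6 D2 libraries, the lower 12 the reverse, and within a strain the Ctrl and KD libraries look alike.

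The kinds of gene differed by direction. Of the 88 annotated genes higher in D2, 26 (29.5%) were pseudogenes and 20 (22.7%) were processed pseudogenes, against 2 (1.94%) and 1 (0.971%) of 103 annotated genes higher in B6, and 0.723% and 0.400% of all 15767 annotated genes tested. Shared sequence followed the same order. The 75-base windows, the length of a read, were compared with all genes of GENCODE M21, measured here or not. At least 10% were found exactly in another gene for 50 genes higher in D2 (56.8%), 24 higher in B6 (23.3%) and 13.8% of genes tested. At least 50% were shared for 33 (37.5%), 11 (10.7%) and 3.27%, respectively.

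For 55 genes of the set, 1 other measured gene held at least 10% of their windows and is called the partner here. The pairs below show how close the sequences are in the B6 reference. Each line is 1 stretch of 75 bases, chosen as the one with the most differences within 1 exon of both genes and within the coding sequence of coding genes, read 5′ to 3′ along the gene, with capitals at the bases that differ between the pair. Gm13363 (chr2:19993325-19993399, plus strand) matches Ptp4a1 (chr1:30943249-30943323, minus strand), a protein tyrosine phosphatase, with 99.4% identity over 522 bases. Oaz1-ps (chr17:17346016-17346090, minus strand) matches Oaz1 (chr10:80826810-80826884, plus strand), which inhibits polyamine synthesis, with 99.7% identity over 685 bases. Gm15772 (chr5:3236599-3236673, plus strand) matches Rpl26 (chr11:68903179-68903253, plus strand), a protein of the large ribosomal subunit, with 99.5% identity over 438 bases. Amd2 (chr10:35710764-35710838, minus strand) matches Amd1 (chr10:40290186-40290260, minus strand), an enzyme of polyamine synthesis, with 99.6% identity over 3202 bases. Btg3 is shown once, because over 756 bases its coding transcript was identical to Gm7334 (chr17:50698688-50698762, plus strand). All coordinates are GRCm38.
Gm13363: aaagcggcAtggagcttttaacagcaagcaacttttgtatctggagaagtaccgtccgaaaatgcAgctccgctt
Ptp4a1: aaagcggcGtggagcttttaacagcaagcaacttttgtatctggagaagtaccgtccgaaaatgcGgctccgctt
Oaz1-ps: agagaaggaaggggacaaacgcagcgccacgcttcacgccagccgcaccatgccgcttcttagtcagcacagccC
Oaz1: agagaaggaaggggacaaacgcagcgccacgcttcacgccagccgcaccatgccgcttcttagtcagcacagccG
Gm15772: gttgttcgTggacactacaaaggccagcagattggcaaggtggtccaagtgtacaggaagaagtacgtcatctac
Rpl26: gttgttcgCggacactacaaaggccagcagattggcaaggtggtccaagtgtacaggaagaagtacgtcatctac
Amd2: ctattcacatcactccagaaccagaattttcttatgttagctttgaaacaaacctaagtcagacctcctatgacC
Amd1: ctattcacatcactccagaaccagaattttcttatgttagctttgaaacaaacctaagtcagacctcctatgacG
Btg3 (chr16:78373343-78373417, minus strand): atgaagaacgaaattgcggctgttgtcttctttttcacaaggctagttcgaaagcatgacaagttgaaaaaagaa

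In several pairs the processed pseudogene was high in D2 by about as much as its parent gene was low there. Gm13363 held 0 to 3.45 in B6 and 2693 to 3638 in D2, while Ptp4a1 averaged 4303 ± 544 (SD, n = 6) in B6 and 1067 ± 219 in D2. The sum of both was 4305 ± 543 in B6 and 4303 ± 594 in D2. The pseudogene differed by 3234 and its parent by -3235, nearly the same size. Ptp4a1 itself, which is not in the set, was lower in D2 (log2 fold change -2.02 ± 0.14, edgeR adjusted p = 8.28e-07).

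Oaz1-ps, with 1 B6 library above 0 (1.70), held 2725 to 3226 in D2, and Oaz1 averaged 5483 ± 406 in B6 and 2491 ± 317 in D2. Their sum was 5483 ± 406 in B6 and 5549 ± 233 in D2, and the parent's opposite difference was 97.8% of the pseudogene's. BC002163 held 0 to 0.872 in B6 and 868 to 1336 in D2, and its partner Ndufs5, a subunit of respiratory complex I, averaged 2120 in B6 and 995 in D2. The sums, 2120 ± 141 and 2124 ± 77.4, lay within their spread. Oaz1 (log2 fold change -1.15 ± 0.09, edgeR adjusted p = 3.39e-06) and Ndufs5 (-1.10 ± 0.10, 5.86e-06) were both lower in D2.

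The same held for a pair of ribosomal protein genes and their copies. Gm12191 averaged 27.6 in B6 and 3673 in D2 and its partner Rpl30 4025 and 325, with sums of 4052 ± 142 and 3998 ± 356. Gm15772 averaged 4.31 in B6 and 5920 in D2 and Rpl26 5810 and 594, with sums of 5814 ± 337 and 6515 ± 561. The opposite difference of the parent was 101.5% and 88.2% of that of the copy. Rpl30 and Rpl26 were themselves past both thresholds and stayed out of the set only by their symbols, so no test is given for them. They are left out of the counts of called partners below, except where stated.

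Over the 14 processed pseudogenes higher in D2 that had a partner, the partner differed in the opposite direction in 10, and in 9 by between 50% and 150% of the pseudogene's difference. The median size of the log2 ratio between strains was 7.87 for these pseudogenes and 0.077 for the sum of each with its partner, and the sum stayed within 1.5-fold between strains in 13 of 14. Gm5801 and Ube2j2, a ubiquitin-conjugating enzyme, (sums 995 and 1015), Gm7367 and Ubald2 (495 and 524), Gm5424 and Ass1, the urea cycle enzyme argininosuccinate synthase, (925 and 971) and Gm9855 and Tdg, a DNA repair glycosylase, (1728 and 1598) belonged to this group. The other 4 did not differ in the opposite direction. For E030024N20Rik (1.18 in B6 and 83.9 in D2), the partner was Ppia, itself in the set, and their sum averaged 570 in B6 and 22736 in D2, the one sum beyond 1.5-fold. The others were Gm15645, whose partner Dchs1, a protocadherin gene, averaged 1120 and 1164, Gm12070, whose partner Gapdh, the glycolytic enzyme, was higher in D2 as well (48153 ± 4917 in B6 and 59036 ± 1713 in D2), and Gm1821, whose partner Ubb, a ubiquitin gene, averaged 39858 and 40206. Gm15645, Gm12070 and Gm1821 thus count among the 13 without an opposite difference. Where the partner is far larger, the sum changes little whatever the pseudogene does. That applies in D2 to Gm1821 (1948), Gm12070 (2443) and Gm6682 (389, beside 16656 for its partner Tuba1b).

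**Figure D3:**
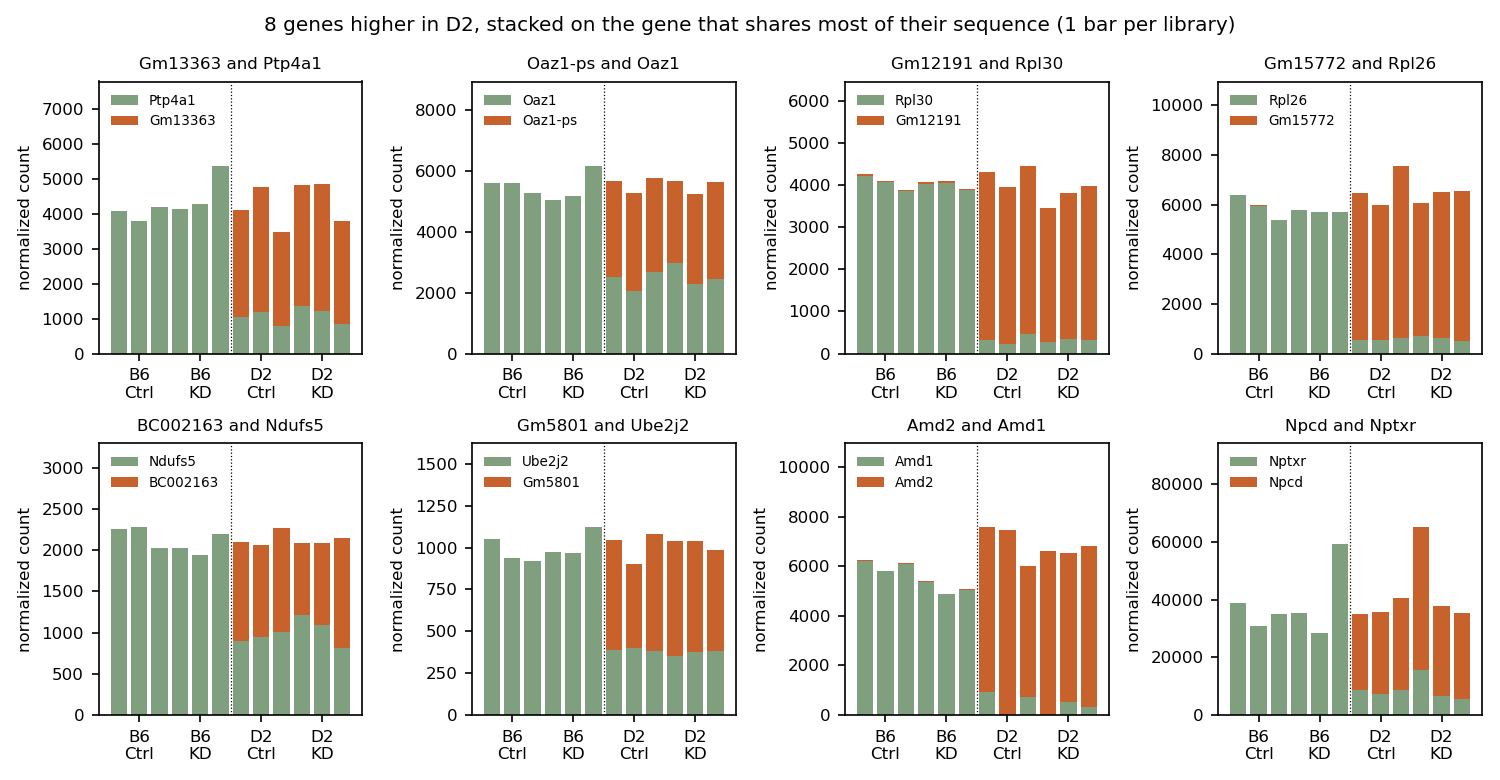
Normalized counts of 8 genes higher in D2 (orange) stacked on their partner gene (green), 1 bar per library, with the 6 B6 libraries left of the dotted line. In the D2 libraries the orange part takes up much of a bar that in B6 is nearly all green. It is smaller than the green part in some D2 bars of BC002163 and Oaz1-ps, such as those of D2 KD 1. The total height of the Gm13363 and Ptp4a1 bars averages 4305 in B6 and 4303 in D2.

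Coding genes with a close copy, or with a partner whose span overlaps theirs, showed the pattern less evenly. Amd1 held 4870 to 6226 in B6 libraries, against 934, 0 and 734 in Ctrl and 0, 520 and 317 in KD libraries of D2, while Amd2 held 23.0 to 47.9 in B6 and 5302 to 7457 in D2. Both genes were in the set, in opposite directions, and their sum averaged 5604 ± 562 in B6 and 6842 ± 584 in D2. Npcd, whose span (chr15:79789675-79834237, minus strand) overlaps that of Nptxr, a neuronal pentraxin receptor, held 0 in B6 and 26567 to 49554 in D2, at least 11448-fold higher. Nptxr averaged 37941 ± 11102 in B6 and 8735 ± 3520 in D2 (log2 fold change -2.13 ± 0.26, edgeR adjusted p = 0.000119), and the sums were 37941 and 41597. Cbx6, a polycomb protein gene at the same locus, averaged 15376 and 17682 (edgeR adjusted p = 0.142). Here 59.3% of the windows of Npcd lay in Nptxr.

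Btg3 and Gm7334 moved in opposite directions in the same way, with Gm7334 at 117 ± 90.1 in B6 and 529 ± 71.6 in D2 (log2 fold change 2.35 ± 0.60, edgeR adjusted p = 0.016). Their sum was 613 ± 61.4 in B6 and 529 ± 71.6 in D2. The other BTG and TOB genes past the expression filter (Btg1, Btg2, Tob1 and Tob2) had adjusted p-values from 0.149 to 0.791. Eif3j1, a translation initiation factor subunit, held 1383 to 1599 in B6 and 0 in every D2 library but D2 KD 1 (138), and its copy Eif3j2 averaged 660 ± 119 in B6 and 1523 ± 108 in D2 (log2 fold change 1.196 ± 0.108, edgeR adjusted p = 8.9e-06). The sum was 2175 in B6 and 1546 in D2. Gm6793 averaged 23.98 in B6 and 4454 in D2, and its partner Hnrnpa3, an RNA-binding protein gene, 13654 and 11394, so that the opposite difference was 51.0% of the first.

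Other pairs did not differ in opposite directions. Slc38a6, an amino acid transporter gene, held 10864 to 17388 in B6 and 305 to 358 in D2. Its partner Ccrn4l (nocturnin), which lies on another chromosome and holds 43.0% of its windows, averaged 14633 ± 2278 in B6 and 1958 ± 125 in D2 (log2 fold change -2.91 ± 0.11, edgeR adjusted p = 7.87e-09), so the sum was lower in D2 too (30316 and 2294). Zxda averaged 0 in B6 and 230 in D2, and its partner Zxdb 714 in B6 and 778 in D2 (log2 fold change 0.11 ± 0.09, edgeR adjusted p = 0.481). Over all 55 pairs the partner differed in the opposite direction in 40, and the sum stayed within 1.5-fold in 33. Amd1 and Amd2 enter these counts in both orders. The counts mix copies at separate places with partners whose span overlaps the gene's own, such as Nptxr for Npcd and Lgi4 for Fxyd3. The direction is only the sign of the difference in means, however small. For Lrrc14b, for example, the partner Ccdc127 averaged 2556 in B6 and 2546 in D2.

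The partners that were not in the set were tested for the strain difference. Of 45 partners tested, 29 (64.4%) were called by edgeR at an adjusted p under 0.05, 9 higher and 20 lower in D2, against 21.3% of all genes tested (8.64% higher, 12.7% lower). Among partners of genes higher in D2, 19 of 32 were called, 2 higher and 17 lower. Among partners of genes higher in B6, 11 of 14 were called, 7 higher and 4 lower. For 51 tested genes whose span overlaps a gene of the set, 19 (37.3%) were called. Reads that match both genes of a pair are divided between them, so a partner's value is not independent of that of the gene that chose it. Nothing in the sources used here says that counting used strand, so antisense and overlapping genes, such as 1700113A16Rik and Mef2d (566 and 2988 in D2, 40.5 and 9043 in B6), cannot be separated.

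The set also held genes of neuronal signaling that share almost no sequence with other genes, all of them named after their values were seen. Grin2b, a subunit of the NMDA-type glutamate receptor, held 19246, 17748 and 26808 in B6 Ctrl and 18683, 14497 and 12823 in B6 KD, against 1083, 1221 and 1499 in Ctrl and 1666, 987 and 1906 in KD libraries of D2. Every B6 library lay far above every D2 library, and B6 KD 3 was the lowest of the B6 libraries. Erbb4, a neuregulin receptor, held 928 to 1960 in B6 and 37.7 to 76.5 in D2. Kcnq3, a potassium channel subunit, held 2823 to 7810 in B6 and 113 to 371 in D2. Zbtb20, a transcription factor of hippocampal neurons, held 8637 to 13131 in B6 and 845 to 1345 in D2. In the other direction, the potassium channel gene Kcna2 held 321 to 1227 in B6 and 6429 to 9302 in D2, the sodium-calcium exchanger Slc8a1 446 to 1127 and 7389 to 10989, and the Wnt receptor Fzd3 101 to 129 and 2825 to 3664. No library of one strain reached the range of the other for any of these genes.

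The 3′ untranslated region (UTR) is the part of a messenger RNA after the coding sequence, and it can be long in neuronal genes. The longest 3′ UTR had a median of 2193 bases over the 86 protein-coding genes higher in B6, 1008 bases over the 52 higher in D2 and 1334 bases over the 15150 tested, with genes that have none counted as 0. At least 3000 bases were annotated for 33 (38.4%), 10 (19.2%) and 17.6% of these genes. That of Grin2b has 18868 bases, that of Zbtb20 23861 and that of Slc8a1, which is higher in D2, 15589. These are examples from the neuronal genes named above and do not stand for either direction. The annotation is of the B6 genome, and the one used to count D2 reads was not examined.

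**Figure D4:**
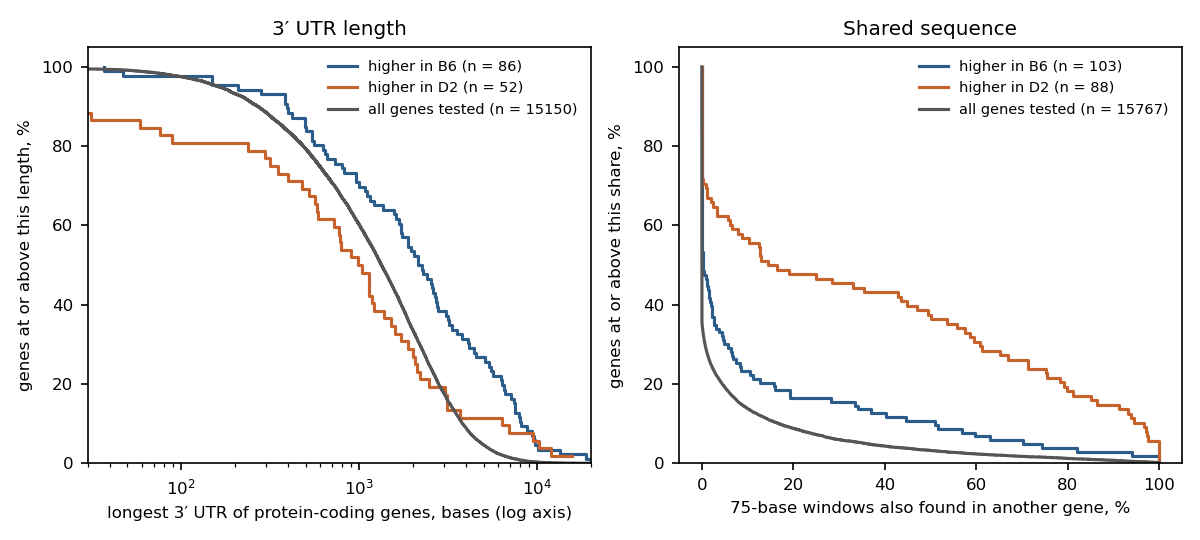
Left, share of protein-coding genes whose longest 3′ UTR is at or above a given length in bases (log axis); right, share of genes with at least a given percentage of their 75-base windows found in another gene, for genes higher in B6 (blue), higher in D2 (orange) and all genes tested (gray). The blue curve lies to the right on the left side (median 2193 against 1334 bases), and the orange curve lies far above the gray on the right side (37.5% against 3.27% of genes at a share of 50%).

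The genes of the set lay on every autosome and on X. On chromosome 14 they made up 2.84% of genes tested, on chromosome 1 2.00% and on chromosome 16 1.86%. The other chromosomes ran from 0.558% (chromosome 9) to 1.59% (chromosome 10). In all, 25 genes of the set fell into 7 runs of at least 3 genes with neighboring starts at most 1 Mb apart. One run on chromosome 1 (chr1:173566283-173982744) held 4 genes of the interferon-inducible p200 family and its neighbors: Pydc4, Mndal and Ifi203, higher in B6, and Ifi202b, higher in D2. Mndal held 88.6 to 279 in B6 and 0 to 4.74 in D2, whereas Ifi202b held 0 to 33.4 in B6 and 20.6 to 448 in D2 and overlapped between strains. A run on chromosome 7 (chr7:104299894-104507849) held Trim12a, Trim34b and Trim30d, of the tripartite motif family of antiviral proteins. Trim12a held 424 to 810 in B6 and 0 to 7.77 in D2. A run on chromosome 4 (chr4:41517437-42773993) held the chemokine genes Ccl27b and Ccl21a, higher in D2, beside Gm13304 and Gm20878, higher in B6, and 1700066J24Rik. Neighbors in these runs thus went in either direction, whereas a run on chromosome 14 (Gm3264, Gm3317 and Gm3500) held only genes higher in D2.

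A few ratios rested on 1 library. Gabra6, a GABA receptor subunit of cerebellar granule cells, held 415 in B6 KD 3 and at most 2.62 in the other 11 libraries. Pcp2, a Purkinje cell gene, held 291 there and 7.85 to 22.7 in the other 5 B6 libraries. Cbln3, another gene of cerebellar granule cells, held 1177 there and 17.02 to 30.5 in the other 5, which overlapped the D2 range. More than 50% of the summed B6 value came from B6 KD 3 for these genes and for Cnpy1 and Clcf1, and from B6 KD 2 for Pydc4 and Ly6c2. Without B6 KD 3, Gabra6, Cnpy1, Pcp2, Clcf1, Cbln3, Fgf11 and 4831440E17Rik left the set. In all, 180 of the 202 genes stayed in whichever single library was left out. No list of cerebellar markers was fixed, and the part of other tissue in these values was not tested.

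The second question was whether the knockdown altered these genes. Of the 202, 200 passed the expression filter (Gabra6 and Cnpy1 did not). Among the 200, 13 were at 0 in every B6 library and 5 at 0 in every D2 library. These passed through the other strain alone and could not be called for KD in the strain at 0, but they count in the 200. In B6, 5 of 200 were called, against 2.64% of all 15853 genes tested, and all 5 were higher in KD (background 1.76% higher and 0.877% lower). Pydc4, Ifi203 and Trim30d belong to the interferon-related runs on chromosomes 1 and 7, and the others were the non-coding RNA 9330175E14Rik and Gm3500. Because the B6 mean that chose genes included the KD libraries, a gene raised by KD in B6 was more easily chosen: with Ctrl libraries alone, Pydc4, Ifi203, Trim30d and 9330175E14Rik would not be in the set, while Gm3500 would.

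Pydc4 held 10.7, 23.0 and 10.5 in B6 Ctrl and 283, 389 and 58.7 in B6 KD (log2 fold change 4.06 ± 0.69, edgeR adjusted p = 0.0332). Trim30d held 95.9, 85.1 and 81.1 in B6 Ctrl and 821, 1004 and 377 in B6 KD (3.08 ± 0.71, adjusted p = 0.0488). Ifi203 held 151, 171 and 193 in B6 Ctrl and 410, 585 and 326 in B6 KD (1.37 ± 0.30, adjusted p = 0.0448). All 3 KD libraries lay above all 3 Ctrl libraries for each, and B6 KD 3 was the lowest of the KD libraries in all of them. The non-coding RNA 9330175E14Rik held 12.3, 11.5 and 11.3 in B6 Ctrl and 97.4, 151 and 37.1 in B6 KD (3.02 ± 0.54, adjusted p = 0.0344). Gm3500, which is higher in D2 (64.3 to 189), held 0 in all B6 Ctrl libraries and 13.6, 2.62 and 10.4 in B6 KD (adjusted p = 0.0379). It passed the filter through its D2 libraries. Its call compares 0 with a few counts, so it says little about KD.

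The 12 genes of an interferon response list, all measured and none at 0 throughout, moved with these genes: their summed level was 2472 to 2954 in B6 Ctrl against 12866 to 41458 in B6 KD, and 2763 to 6842 in the D2 Ctrl group against 3443 to 15471 in the D2 KD group. The 5 microglia markers summed to 7540 to 9005 in B6 Ctrl and 10190 to 16528 in B6 KD, and in D2 to 7289 to 11747 in Ctrl mice and 7534 to 12388 in KD mice. The part of either in the result was not tested. The 5 calls held in 4 to 6 of the 12 fits that each left out 1 library, and none was made without B6 Ctrl 1, B6 Ctrl 3, B6 KD 1, B6 KD 2, D2 Ctrl 1 or D2 Ctrl 2. None was made with the library total as a covariate. Over all 12 libraries, the call of Pydc4 was also lost with limma-voom (adjusted p = 0.0731), that of Gm3500 with edgeR's other quasi-likelihood method (0.104) and that of Trim30d with no expression filter (0.0561). DESeq2 called 18 of the 197 genes of the set to which it gave an adjusted p (9.14%), against 10.7% of all genes, and limma-voom called 7 of 200 (3.5%), against 2.32%.

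In D2, none of the 200 genes was called, and neither was any of all genes tested (0.00%). At an unadjusted p under 0.05 there were 12 of 200 (6.0%), against 2.85% of genes tested. All of these but Serpina3h were higher in B6. Some, such as Gm20878 (mean 2.155 in D2), were near 0 in D2 and passed the filter through B6. The share therefore cannot be read against that of all genes. DESeq2 and limma-voom called none of the set, against 0.00631% and 0.00% of all genes. The smallest adjusted p was that of 1700110I01Rik, a long non-coding RNA, with 1.88, 0 and 1.11 in the D2 Ctrl and 10.5, 8.68 and 10.5 in the D2 KD libraries (adjusted p = 0.479), and with 109 to 117 in B6 Ctrl and 90.6 to 110 in B6 KD. Its B6 libraries passed the filter whatever its D2 level, and the D2 values are few counts, with Ctrl not told from 0. This D2 difference therefore says little about KD. Without the library labelled D2 KD 3 the edgeR count in D2 was again 0, against 0.00623% of all genes. Averaged over strains, none of the 200 genes was called by edgeR or limma-voom, against 0.00% of all genes with either. At an unadjusted p under 0.05 there were 34 (17%), against 19.2% of genes tested, and DESeq2 called 15 of 197 (7.61%), against 7.83%. Without the library labelled D2 KD 3, edgeR called 8 of 201 for the average (3.98%), against 4.97% of genes tested, among them 1700110I01Rik, Pydc4, Ifi203, Trim30d, 9330175E14Rik and Gm3500. Of these, 1700110I01Rik in D2 and Gm3500 in B6 held few counts. The strain by treatment interaction was called for none of the set by edgeR, DESeq2 or limma-voom, against 0.00%, 0.0694% and 0.00% of all genes. At an unadjusted edgeR p under 0.05 there were 15 of the 200 (7.5%), against 5.91% of genes tested.

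**Figure D5:**
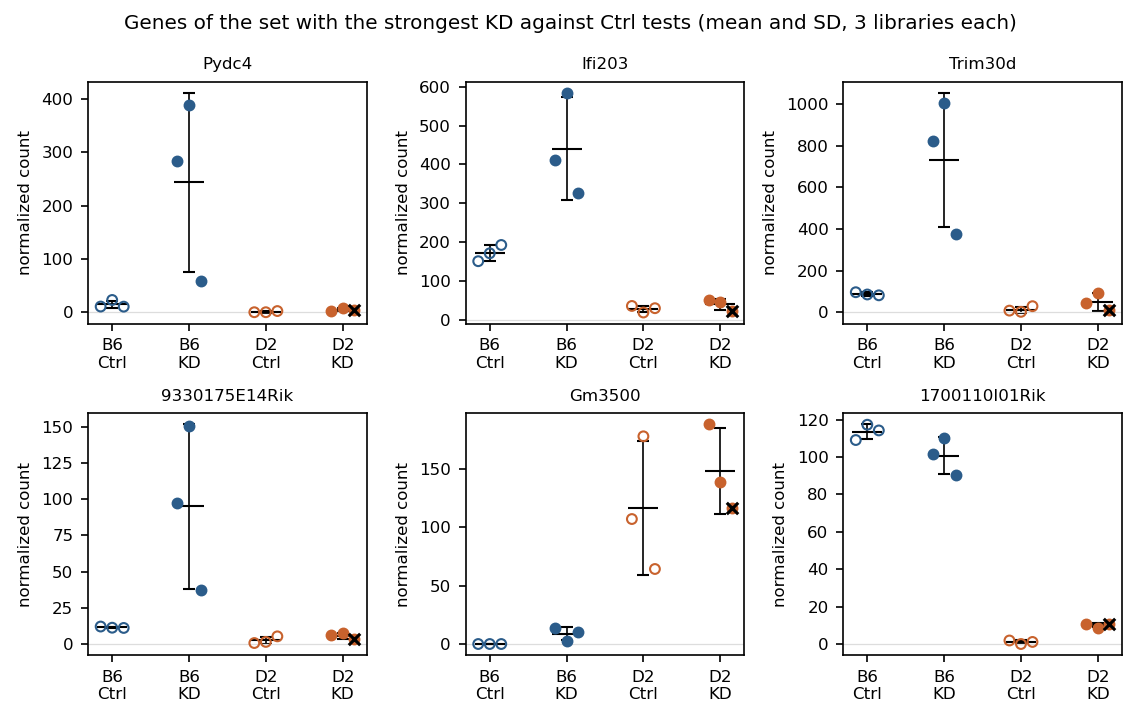
Normalized counts of 6 genes of the set in each library, by strain and treatment, with open circles for Ctrl, filled circles for KD, a cross on the library labelled D2 KD 3, and bars for the mean ± SD of 3 libraries. In B6, the KD points of Pydc4, Ifi203, Trim30d and 9330175E14Rik lie above all Ctrl points, and in D2, 1700110I01Rik lies at 0 to 1.88 in Ctrl and at 8.68 to 10.5 in KD. Those D2 values are few counts.

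Over the 200 genes the median log2 fold change of KD was -0.02 in B6 and 0.00 in D2, against 0.00 in both for all genes tested. All 3 KD libraries lay above all 3 Ctrl libraries for 23 genes in B6 (11.5%, against 12.6% of genes tested) and for 12 in D2 (6.0%, against 2.99%). They lay below for 26 in B6 (13.0%, against 16.2%) and for 3 in D2 (1.5%, against 3.06%). Hsd3b2 was an example in B6, with 2420 to 2904 in Ctrl and 2016 to 2199 in KD. Genes near 0 in the lower strain passed the filter through the other strain and count here. These shares therefore cannot be read against those of all genes. The 18 genes with all libraries of the lower strain at 0, among them Btg3, Prl8a1, 2900097C17Rik, Npcd and Gm20594, were by that definition at 0 there in Ctrl and KD mice alike. They were picked by those zeros, so this is no result about KD. All 18 count in the medians and shares above, where they could show no change in the strain at 0.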

How the data were processed

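Messenger RNA of 12 hippocampi was sequenced in paired reads of 75 bases. The authors aligned the reads of each mouse to its own strain's genome and estimated genes with RSEM 1.2.12 and Bowtie2 2.2.0, per the labels. The deposited expected counts (22236 genes) need not be whole. The deposited signal, a DESeq2 normalized count, gave whole reads once multiplied by its library's size factor (100.0% of 266784 values, tolerance 0.01 reads), namely the expected counts without their decimals. Labels name the builds GRCm38 and mm10, and 27 symbols turned into dates were restored from the identifiers.

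The set and the gene lists were chosen with earlier results of these data known. Expected counts were rounded and tested with the quasi-likelihood test of edgeR 4.0.16 (R 4.3.3), with TMM, filterByExpr (15853 genes), robust estimation, 4 group means and Benjamini-Hochberg adjustment over all genes. SEs are approximate (fold change over the square root of F). The fit was tested on simulated data for KD in B6. Named genes were the 6 with the largest differences known beforehand, the 12 largest ratios each way, called genes or the 3 smallest p per test, edge genes, runs, partners, genes lost with 1 library and family lists. 1 gene of the set is not reported here by name or value but counts in all totals. Others named were chosen after their values were seen. The plan was to take partners by protein identity; no protein table was used, so shared 75-base windows (longest transcript, GENCODE M21, either strand) took its place after the data were examined. Sequences are from the same release. Replicates are separate mice, numbered in order of deposit.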

Additional observations from a re-analysis of the deposited data

Results flagged for a closer look

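Within the 6 libraries of the higher strain, 1 library stood apart from the rest by Dixon's test in 16 of the 202 genes. Chance flags about 1 in 20 groups, but the same values chose the genes, and 6 of the 16 (Gabra6, Cnpy1, Pcp2, Clcf1, Lsamp and Cbln3) left the set without that library, so the count cannot be read against that share. Of these 16, 13 were high and 3 low, and 8 were in B6 KD 3. In that library Gabra6 held 415 (others at most 2.62), Pcp2 291 (others at most 22.7), Cbln3 1177 (others at most 30.5) and Cnpy1 293 (others at most 14.4). Clcf1 held 547 (others at most 95.8), Gins2 1247 (others at most 631) and Fosl1 242 (others at most 136) in the same library, and Slc38a6 was low at 10864 (others at least 16036). In B6 Ctrl 3, Lsamp held 15322 and Slco1a6 109, both above the other 5 B6 libraries.

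In D2 KD 1, Npcd held 49554 (others at most 31763), Gm9899 547 (others at most 403) and 2810047C21Rik1 174 (others at most 98.7). Lrrc14b was low at 122 in D2 Ctrl 3, and 4732471J01Rik at 52.9 in D2 KD 2. Nptxr, the partner of Npcd, was also highest among D2 libraries in D2 KD 1 (15513).

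The non-coding RNA 2810055G20Rik went opposite ways with KD, all 3 libraries above Ctrl in B6 and all 3 below in D2. The difference of the D2 and B6 log2 changes was -0.68 from the group means. In edgeR's quasi-likelihood test of the strain by treatment interaction it was -0.695 ± 0.230 (SE), with an adjusted p of 0.821 over all genes tested (unadjusted p = 0.0119), so it did not pass.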

How the results depend on the processing

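The set held 386 genes at a ratio of 4 and 123 at a ratio of 16, and 156 to 233 under the other levels and scales. Without 1 library it held 202 to 207, and with Ctrl libraries only 193, of which 185 were shared. In B6, the KD count of 5 became 18 with DESeq2, 0 with the library total as a covariate, and 8 with B6 KD 3 and D2 KD 3 both left out, a setting chosen after seeing the data. Without 1 library it ran from 0 to 7. The count of 0 for KD averaged over strains became 15 with DESeq2 and 10 with those libraries left out, and without 1 library ran from 0 to 8: 6 without B6 KD 3, 4 without D2 Ctrl 3 and 8 without D2 KD 3. The counts for KD in D2 and the interaction were 0 in all 21 alternatives. Of the genes outside the set that share windows with a gene of it or overlap its span, 41 of 84 were called for the strain difference, and 36 to 45 in the alternatives. Rpl30 and Rpl26 are included in these counts. Both passed the thresholds that chose the set, so their own calls carry no information. The causes were not tested.

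The 5 log2 fold changes called in B6 kept their direction in every alternative. For Gm3500 this was fixed in advance, because all its B6 Ctrl libraries were at 0. No paired analysis was possible because the labels give no replicate numbers. Values at or under 3 counts cannot be told from 0, and bounds cover counting error only.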

Other observations

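Several genes higher in B6 were uneven among the D2 libraries. Uhmk1, a kinase gene, held 870, 826 and 45.5 in D2 Ctrl and 68.5, 79.0 and 747 in D2 KD, against 8228 to 11964 in B6. Tmem178b held 485, 449 and 89.9 in D2 Ctrl and 111, 78.9 and 517 in D2 KD. Deptor, an inhibitor of mTOR signaling, held 150, 187 and 22.2 in D2 Ctrl and 29.5, 40.2 and 154 in D2 KD. D2 Ctrl 1, D2 Ctrl 2 and D2 KD 3 were the higher 3 libraries for each of these genes, a split that follows neither treatment. D2 KD 3 is the library whose Hp1bp3 fell among the D2 Ctrl libraries. The interferon response list summed to 2795, 2763 and 3443 in these 3 libraries and to 6842, 11327 and 15471 in D2 Ctrl 3, D2 KD 1 and D2 KD 2, and the microglia markers to 9237, 7289 and 7534 against 11747, 9525 and 12388. The 5 oligodendrocyte markers separated in the opposite direction. They summed to 136627, 95036 and 90785 in D2 Ctrl 1, D2 Ctrl 2 and D2 KD 3, against 72841, 75464 and 71854 in D2 Ctrl 3, D2 KD 1 and D2 KD 2. The part of any of these lists in the values was not tested. Atf7, a transcription factor gene higher in D2, held 319, 291 and 93.2 in D2 Ctrl and 87.5, 116 and 295 in D2 KD, with the same 3 libraries higher. These genes were chosen after their values were seen.

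Immune genes of the set that edgeR did not call over all 12 libraries also varied within groups. Serpina3h, a gene of the serine protease inhibitor family, held 122, 238 and 608 in D2 Ctrl and 1524, 1468 and 199 in D2 KD. Gpnmb, a glycoprotein of microglia and pigment cells, held 193, 989 and 293 in B6 Ctrl and 2769, 1868 and 982 in B6 KD, and 12.0 to 41.0 in D2. Gpnmb was called for KD in B6 by DESeq2, by limma-voom and by edgeR without B6 Ctrl 2, and Serpina3h for the average over strains by DESeq2 and by edgeR without D2 KD 3.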
